A study of Homo sapiens with 24 samples.

Results

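The AP-1 transcription factor genes of the FOS family (FOS, FOSB, FOSL1 and FOSL2) and of the JUN family (JUN, JUNB and JUND) were followed in RNA-seq counts from ovarian cancer cells. The members were taken by gene symbol, and all 7 of them were found among the 28277 genes listed in each of the count tables and passed the filter on low counts there. PEO1 and PEO4 are human high-grade serous ovarian carcinoma lines from the same patient, taken before and after resistance to chemotherapy arose, and the labels class both as ovarian adenocarcinoma. The first table holds 3 libraries of untreated PEO1 cells and 3 of untreated PEO4 cells, which the labels call PEO1 A and PEO4 A. PEO1 A carries the genotype label WT, and the study's methods describe it as BRCA2-deficient. The second table holds PEO1 B, labelled BRCA2+ and called PEO1BRCA+ in the study because BRCA2 function had been regained by spontaneous reversion, and PEO4 B, labelled WT. According to the study, PEO4 cells regained the BRCA2 reading frame through a reversion mutation of their own. By that account the A pair sets BRCA2-deficient against BRCA2-restored cells, whereas BRCA2 is restored in both lines of the B pair. PEO1BRCA+ and PEO4 B cells were untreated or incubated with 5 µM pyridostatin (PDS), a small molecule that binds and stabilizes G-quadruplexes (G4s), for 2 or 6 h, with 3 libraries per condition. All 24 libraries came from adherent cultures of established lines that were trypsinized before lysis. The study calls its RNA-seq replicates biological, and the labels do not say how their cultures were kept apart. PEO1 A differs from PEO1BRCA+ in both genotype and medium, and the tables were normalized separately, so no test was made between them.

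AP-1 is a dimer of basic leucine zipper proteins. JUN proteins pair with each other or with a FOS protein, whereas FOS proteins need a JUN partner, and the make-up of the dimer sets how strongly it activates transcription. FOS, FOSB, JUN and JUNB are classical immediate early genes, whose short-lived mRNAs are switched on within minutes by growth factors or stress through MAP kinases. FOSL1 (FRA-1) and FOSL2 (FRA-2) lack the strong activation domain of FOS, and FOSL1 is itself induced by AP-1 and tied to migration and invasion of carcinoma cells. JUND is expressed more steadily and often restrains growth.

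Library totals ran from 32528913 to 63882077 counts in the first table and from 18699929 to 43713947 in the second. In the second table, the 6 untreated libraries were shallower (18699929 to 22375644) than the 12 treated ones (33260167 to 43713947), and ribosomal RNA genes took 0.217 to 0.474% of the counts before PDS against 0.0164 to 0.0369% after it. Depth and the ribosomal share therefore cannot be told apart from the treatment in the results after PDS. Of 10 epithelial ovarian carcinoma markers, 9 had a mean of at least 1 CPM (counts scaled to library size by TMM) in every condition, with SOX17 at or near 0, and their summed level was 5213 to 14169 CPM. Of 8 immune, fibroblast and endothelial markers, 2 (CD68 and COL1A1) reached 1 CPM in every condition, and PTPRC and CD3E were at or near 0 throughout.

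RefSeq promoters of GRCh38.p14 were matched for 6 of the 7 members, and FOSL1 had no entry. The 250 bases before the start are given for the immediate early genes FOS, FOSB and JUN and for FOSL2, each of which was called in at least 1 comparison below. Capitals mark TGACG on either strand (the half-site of the cAMP response element, written CGTCA where it lies on the other strand), TGACATCA (an AP-1 site of the kind known from the JUN promoter) and TATAAA (the TATA box).
FOS (chr14:75278578-75278827, plus strand): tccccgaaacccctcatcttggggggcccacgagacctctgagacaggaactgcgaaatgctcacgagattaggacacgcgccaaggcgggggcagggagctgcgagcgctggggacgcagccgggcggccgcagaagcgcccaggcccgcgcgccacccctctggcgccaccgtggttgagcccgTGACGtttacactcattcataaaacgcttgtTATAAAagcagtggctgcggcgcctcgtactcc
FOSB (chr19:45467746-45467995, plus strand): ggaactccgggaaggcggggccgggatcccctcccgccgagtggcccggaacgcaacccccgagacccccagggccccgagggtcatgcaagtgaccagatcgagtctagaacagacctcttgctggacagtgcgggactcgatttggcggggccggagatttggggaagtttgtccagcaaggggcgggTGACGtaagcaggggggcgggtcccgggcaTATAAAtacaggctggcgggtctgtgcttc
FOSL2 (chr2:28392608-28392857, plus strand): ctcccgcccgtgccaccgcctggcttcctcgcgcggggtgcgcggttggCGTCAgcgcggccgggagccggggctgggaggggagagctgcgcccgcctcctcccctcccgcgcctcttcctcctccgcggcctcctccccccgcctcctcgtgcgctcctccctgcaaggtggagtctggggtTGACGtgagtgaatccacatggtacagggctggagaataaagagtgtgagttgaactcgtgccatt
JUN (chr1:58784048-58784297, minus strand): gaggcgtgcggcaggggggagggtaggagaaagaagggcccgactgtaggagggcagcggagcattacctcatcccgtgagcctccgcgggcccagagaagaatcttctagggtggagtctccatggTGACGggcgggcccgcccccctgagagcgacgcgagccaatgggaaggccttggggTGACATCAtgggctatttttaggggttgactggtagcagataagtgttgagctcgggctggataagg

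TGACG on either strand occurred in 6 of 6 member promoters and in 21.2% of all 35116 promoters of this length. It began 64 bases before the start in FOS, 60 in FOSB and 66 in FOSL2, where a further copy lay on the other strand. JUND held the full palindrome TGACGTCA, which overlaps TGACG and was found in 1.65% of all promoters. TGACATCA was found in the JUN promoter alone among the members, 67 bases before the start, and in 2.37% of all promoters. TATAAA on the sense strand was present in FOS, FOSB and JUNB, against 6.8% of all promoters. The classical AP-1 letters TGANTCA were in none of the 6 windows (6.57% of all promoters), and neither was a CArG box, the serum response element's core (1.16%). A canonical G4 motif, here 4 runs of at least 3 G on either strand with loops of 1 to 7 bases, was found in 1 of the 6 windows, that of FOSL2, against 23.5% of all promoters. These are matches of letters within the 250 bases before the start and do not show binding. Sites farther upstream were not searched, so a motif missing here may lie outside the window.

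In GRCh38, FOS lies at chr14:75278828-75282230, FOSL1 at chr11:65892049-65900545 and FOSL2 at chr2:28392858-28417317, each with 4 exons. JUN (chr1:58780791-58784047), JUNB (chr19:12791486-12793315) and JUND (chr19:18279694-18281622) have 1 exon each, and FOSB lies at chr19:45467996-45475179. FOSB overlaps ERCC1, JUNB overlaps HOOK2 and FOSL2 overlaps FOSL2-AS1 on the opposite strand, so reads of these neighbours may enter the counts if strand was not used. FOSL2 also overlaps ENSG00000270640 on the same strand, and use of strand would not separate those reads. The mRNA-destabilizing pentamer ATTTA occurred 5 times in the 3′ UTR of FOS, or 6.2 per kb, and 2 times in that of JUNB, or 4.0 per kb. FOSL1 and JUND held 1 copy each, or 1.19 and 1.34 per kb, FOSB 3 (1.38 per kb), JUN 3 (2.34 per kb) and FOSL2 9 (1.85 per kb). The median over genes with a 3′ UTR of at least 100 bases was 1.64 per kb.

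Levels of different members were compared as CPM per kb of union exons, a length-scaled level given as mean ± SD of 3 libraries. JUNB was the most abundant member in 6 of the 8 conditions, and FOSB the least abundant in all 8. In untreated PEO4 B, JUNB stood at 494 ± 75.1, followed by JUND at 140.5 ± 10.7, JUN at 115 ± 48.7, FOSL2 at 92.9 ± 5.23, FOS at 76.0 ± 52.8, FOSL1 at 49.5 ± 22.1 and FOSB at 6.28 ± 4.82. From JUND to FOSL1 each neighbour's libraries overlapped the next one's, so neighbouring ranks were not resolved. All JUND libraries still lay above those of FOSL2, FOS and FOSL1. For FOS this held only per kb of union exons. Per kb of the longest transcript, FOS in replicate 1 stood at 196, above the JUND libraries (131 to 152). In untreated PEO1BRCA+, JUNB (271 ± 9.18) was followed by FOSL1 (224 ± 45.0), JUND (98.1 ± 1.61), JUN (39.2 ± 1.93), FOSL2 (31.3 ± 1.23), FOS (15.8 ± 5.11) and FOSB (1.95 ± 1.04), and no neighbours overlapped. Per kb of the longest transcript, however, FOSL1 (192 to 285) overlapped JUNB (261 to 280) there. PEO1 A and PEO4 A both had JUNB on top, at 272 ± 13.8 and 275 ± 38.4, and FOSB at the bottom, at 4.28 ± 1.40 and 3.91 ± 3.17. Between these, FOS overlapped JUN and FOSL2 overlapped FOSL1 in PEO1 A, and every neighbour from FOSL2 down to FOSL1 overlapped the next in PEO4 A. Per kb of the longest transcript, FOS in PEO1 A (113 to 130) lay above JUN and above JUND (104 to 112).

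After PDS, FOSL1 took the first place in PEO1BRCA+ and the second in PEO4 B. Its share of the length-scaled sum of the 7 members was 32.7% in untreated PEO1BRCA+, 41.4% at 2 h and 49.7% at 6 h, and 4.94%, 22.4% and 35.9% in PEO4 B. Within the FOS family alone, FOSL1 made up 17.5 to 29.1% in the untreated PEO4 B libraries, 76.0 to 81.8% at 2 h and 87.4 to 88.5% at 6 h. FOS and FOSL2 held the greater part of the FOS family in untreated PEO4 B, with 16.1 to 45.1% and 32.7 to 65.8%. In PEO1BRCA+ the share of FOSL1 was already 80.6 to 83.7% before PDS and ran from 93.4 to 94.6% at 6 h. The median ratio of FOSL1 to FOS per length went from 0.931 to 27.8 and 59.2 in PEO4 B and from 15.9 to 79.7 and 95.4 in PEO1BRCA+, while it was 0.473 in PEO1 A and 0.291 in PEO4 A. In untreated PEO4 B this ratio ran from 0.411 to 1.09, so that FOSL1 exceeded FOS in 1 of the 3 libraries, replicate 3. That order depended on the length used. Per kb of the longest transcript, FOSL1 lay below FOS in replicate 3 as well (28.7 against 36.0). The sum of the 7 members per length was 974 ± 202 in untreated PEO4 B, 631 ± 50.2 at 2 h and 676 ± 7.57 at 6 h, and 681 ± 57.0, 608 ± 24.4 and 688 ± 8.50 in PEO1BRCA+.

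**Figure D1:**
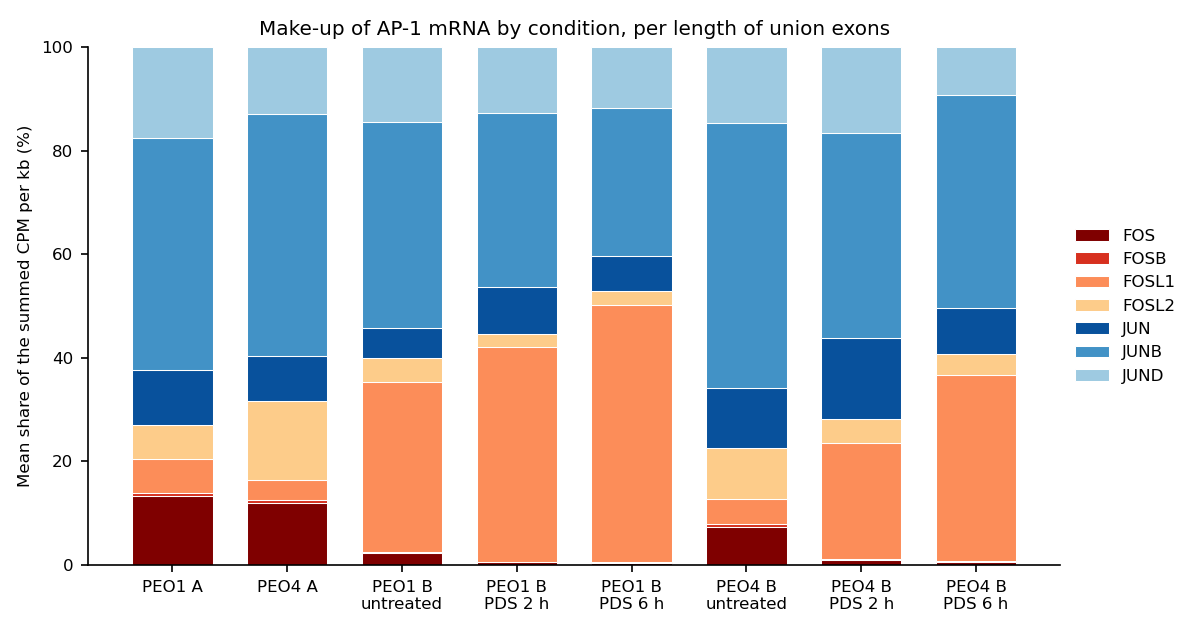
Stacked bars give each member's mean share (%) of the summed CPM per kb of the 7 members in the 8 conditions, with 3 libraries per bar. The FOSL1 segment of PEO4 B grew from 4.94% untreated to 35.9% after 6 h of PDS, and that of PEO1BRCA+ (PEO1 B) from 32.7 to 49.7%.

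Between the untreated lines of the second table, 5 of the 7 members were called, which required an adjusted p below 0.05 together with a log2 fold change past 1 or -1, against 24.8% of all genes tested. FOS, FOSB, FOSL2 and JUN were higher in PEO4 B than in PEO1BRCA+, and FOSL1 was lower. FOS, the founding member and partner of JUN, stood at 412, 238 and 75.8 CPM in PEO4 B and at 67.1, 34.6 and 49.4 CPM in PEO1BRCA+. The groups did not overlap, but the PEO4 B libraries spanned a wide range and replicate 3 lay close to the highest PEO1BRCA+ library. The log2 fold change was 2.27 ± 0.54 (SE, adjusted p = 0.0023). FOSB, its close relative, was at 58.4, 40.4 and 5.76 CPM in PEO4 B and 16.3, 4.83 and 11.4 CPM in PEO1BRCA+, so that the groups overlapped through replicate 3 of PEO4 B. Its log2 fold change was 1.70 ± 0.62 (adjusted p = 0.027), and this call was lost when any of 4 of the 6 libraries compared was left out (PEO1BRCA+ replicates 2 and 3, PEO4 B replicates 1 and 2; adjusted p of 0.06 to 0.15) or when only these groups were fitted (adjusted p = 0.19).

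FOSL2 and FOSL1 separated the untreated lines without overlap, in opposite directions. FOSL2 was at 673, 624 and 698 CPM in PEO4 B against 224, 215 and 233 CPM in PEO1BRCA+, and its log2 fold change was 1.57 ± 0.07 (adjusted p = 3.6e-16). FOSL1 was at 100.3, 131 and 48.8 CPM in PEO4 B and at 458, 327 and 486 CPM in PEO1BRCA+. All PEO1BRCA+ libraries lay above all PEO4 B libraries, and the log2 fold change was -2.18 ± 0.26 (adjusted p = 5.9e-06), or 4.54-fold lower in PEO4 B. JUN, the most potent activator of its family, was at 523, 516 and 214 CPM in PEO4 B and 139, 150.2 and 138 CPM in PEO1BRCA+, with replicate 3 of PEO4 B again the lowest of its group but above PEO1BRCA+. Its log2 fold change was 1.55 ± 0.24 (adjusted p = 7.3e-05). JUNB, which often opposes JUN, was at 1016, 945 and 751 CPM in PEO4 B and 478 to 512 CPM in PEO1BRCA+, a log2 fold change of 0.87 ± 0.10 (adjusted p = 1.9e-07) that was under the fold threshold. JUND was at 253 to 293 CPM against 186 to 191 CPM, with a log2 fold change of 0.52 ± 0.08 (adjusted p = 2.3e-06), also under it. In the same contrast 4 of the 5 tested immune, fibroblast and endothelial markers (COL1A1, COL3A1, PECAM1 and VWF) were higher in PEO4 B, where the list's summed level was 71.0 to 75.7 CPM against 38.9 to 43.3 CPM, with PTPRC and CD3E at 0 in both. Among the 9 tested epithelial markers, 1 was called higher and 1 lower in PEO4 B. MSLN had a mean of 651 CPM against 257 CPM in PEO1BRCA+, and KRT7 of 1046 CPM against 3313 CPM. The part of either list in the differences of the members was not tested.

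Between PEO1 A and PEO4 A, 1 of the 7 members was called, against 25.8% of all genes tested. This was FOSL2, at 556, 653 and 705 CPM in PEO4 A and 295, 297 and 276 CPM in PEO1 A. The groups did not overlap, and the log2 fold change was 1.14 ± 0.09 (adjusted p = 4.2e-07). FOS was at 338, 149 and 201 CPM in PEO4 A and 274, 238 and 261 CPM in PEO1 A (log2 fold change -0.17 ± 0.31, adjusted p = 0.67). JUN was at 279, 120.3 and 164 CPM against 279, 209.8 and 217 CPM (log2 fold change -0.32 ± 0.34, adjusted p = 0.46). In both genes, and in FOSB at 41.0, 6.55 and 17.5 CPM, PEO4 A replicate 1 was the highest and replicate 2 the lowest of its group, and the PEO4 A range enclosed or nearly enclosed that of PEO1 A. FOSL1 was at 19.6, 63.6 and 34.7 CPM in PEO4 A, all below the 73.1 to 73.7 CPM of PEO1 A. Its log2 fold change was -0.91 ± 0.45 (adjusted p = 0.15), and it was called at -1.45 (adjusted p = 0.00078) without PEO4 A replicate 2. JUNB was alike in its means (498 ± 25.3 and 504 ± 70.3 CPM) and JUND had a log2 fold change of -0.52 ± 0.13 (adjusted p = 0.0043). Whether the line difference itself differed between the tables was not tested. COL1A1 was the only tested marker of other cell types called in this contrast, at a log2 fold change of -1.83, and PTPRC and CD3E were at or near 0. Among the 9 tested epithelial markers, 1 was called higher and 1 lower in PEO4 A. PAX8 had a mean of 331 CPM against 113 CPM in PEO1 A, and KRT7 of 293 CPM against 1918 CPM.

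**Figure D2:**
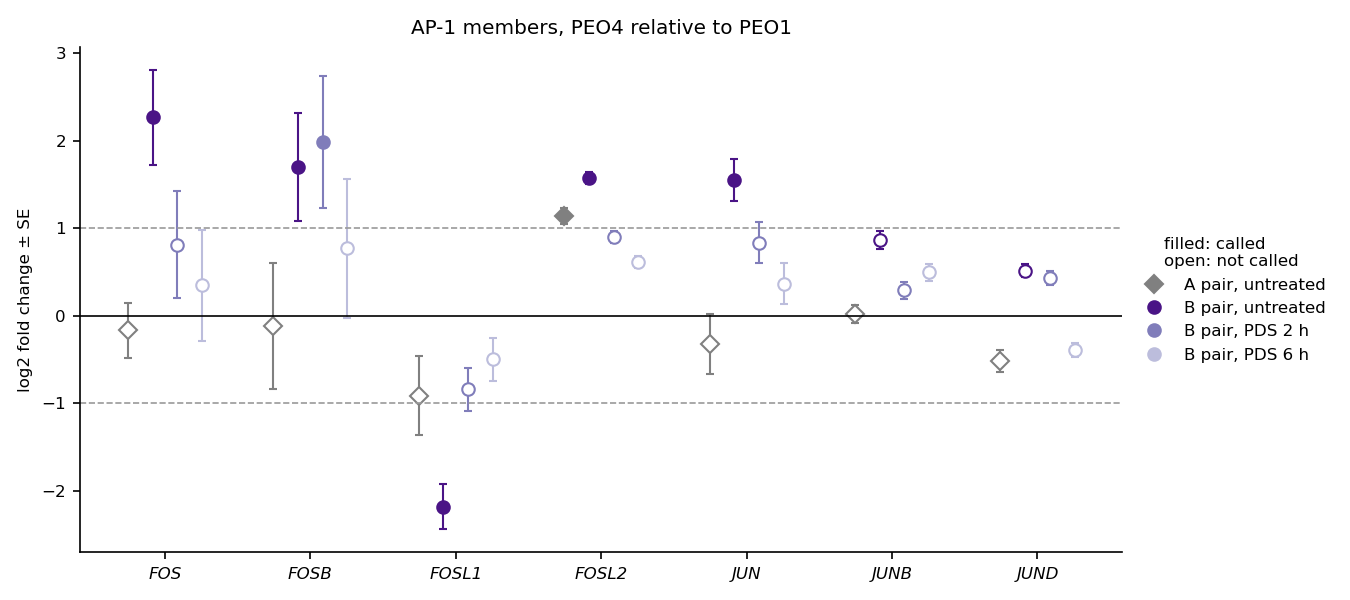
Points give the log2 fold change of each member in PEO4 relative to PEO1 (vertical axis, ± SE) for the untreated A pair, the untreated B pair and the B pair after 2 and 6 h of PDS, with filled symbols for called members and dashed lines at -1 and 1. FOSL1 lay at -2.18 in the untreated B pair and at -0.50 after 6 h, where no member was called.

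In PEO4 B, 4 of the 7 members were called after 2 h of PDS against 17.4% of all genes, and 5 of the 7 after 6 h against 22.6%. By adjusted p alone, 6 passed at 2 h and 7 at 6 h, and the share of all genes under that looser rule is not given here. FOS, FOSB and FOSL2 fell at both times, JUND fell at 6 h, and FOSL1 rose at both times. Both comparisons use the same untreated libraries, so their values are given side by side. The FOS level, at 412, 238 and 75.8 CPM untreated, was 16.6, 25.3 and 12.7 CPM at 2 h and 13.1, 17.6 and 6.53 CPM at 6 h. Every treated library lay below every untreated one. The log2 fold changes were -3.74 ± 0.58 (adjusted p = 8.1e-05) and -4.28 ± 0.60 (adjusted p = 2.8e-05), the latter a 19.5-fold lower level. FOSB was at 9.05, 10.8 and 5.78 CPM at 2 h, which overlapped the lowest untreated library at 5.76 CPM, and at 4.67, 5.40 and 2.39 CPM at 6 h, below all of them. Its log2 fold changes were -2.04 ± 0.61 (adjusted p = 0.01) and -3.06 ± 0.66 (adjusted p = 0.001), and the call at 2 h was lost without untreated replicate 1 (-1.43, adjusted p = 0.068) and when only these groups were fitted (adjusted p = 0.089).

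FOSL1 moved the other way. Its level in PEO4 B, 100.3, 131 and 48.8 CPM untreated, was 272, 259 and 264 CPM at 2 h and 460.3, 456 and 458 CPM at 6 h, with tight replicates and no overlap. The log2 fold changes were 1.51 ± 0.25 (adjusted p = 0.00017) and 2.30 ± 0.26 (adjusted p = 3.5e-06), or 2.84-fold and 4.91-fold higher. FOSL2, its close relative, went from 624 to 698 CPM untreated to 187 to 239 CPM at 2 h and 197 to 208 CPM at 6 h. No treated library reached an untreated one, and the log2 fold changes were -1.64 ± 0.07 (adjusted p = 7.7e-16) and -1.71 ± 0.07 (adjusted p = 2.7e-16).

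Among the JUN genes of PEO4 B, JUND was at 293, 267 and 253 CPM untreated, 187, 225 and 191 CPM at 2 h and 116, 122 and 122 CPM at 6 h. The treated libraries were below the untreated ones at both times, and the log2 fold change was -0.43 ± 0.08 (adjusted p = 3e-05) at 2 h, under the fold threshold, and -1.18 ± 0.08 (adjusted p = 3.4e-12) at 6 h. JUN was at 347, 386 and 338 CPM at 2 h and 209.7, 222 and 213 CPM at 6 h, against 523, 516 and 214 CPM untreated, so that untreated replicate 3 lay within the 6 h values. Its log2 fold changes were -0.23 ± 0.23 (adjusted p = 0.42) and -0.96 ± 0.24 (adjusted p = 0.0028). JUN was called at 6 h without that library (-1.27, adjusted p = 2.1e-15), with scaling by library totals (-1.11) and with upper-quartile scaling (-1.07). JUNB was at 414 to 518 CPM at 2 h and 503 to 519 CPM at 6 h, below the 751 to 1016 CPM of untreated cells. Its log2 fold changes, -0.98 ± 0.10 (adjusted p = 4.9e-08) and -0.83 ± 0.10 (adjusted p = 3.6e-07), were under the fold threshold, which the 2 h value passed under 3 other scalings (-1.001 to -1.10), without 2 h replicate 2 (-1.07) and without untreated replicate 3 (-1.09). Of the 5 tested markers of other cell types, COL1A1, COL3A1, PECAM1 and VWF fell as well at both times (log2 fold changes of -2.99, -3.60, -3.58 and -4.17 at 6 h). Their levels were low, with means from untreated to 6 h of 22.1 to 2.80 CPM for COL1A1 and 6.80 to 0.567 CPM for COL3A1. PECAM1 went from 1.24 to 0.0935 CPM and VWF from 0.733 to 0.0403 CPM. CD68, the most abundant of the 5, had a mean of 42.4 CPM untreated and of 72.4 CPM at both times. Its log2 fold change of 0.77 ± 0.12 (adjusted p = 3.5e-05 at 2 h and 2.9e-05 at 6 h) was under the fold threshold. The summed level of that list was 71.0 to 75.7 CPM untreated, 75.4 to 86.2 CPM at 2 h and 71.7 to 80.8 CPM at 6 h, with PTPRC and CD3E at 0. Of the 9 tested epithelial markers, 1 was called lower at 2 h and 3 at 6 h, and 0 were called higher. The list did not move as 1 at 6 h. Means went up for KRT7 (1046 to 1685 CPM) and EPCAM (397 to 571 CPM), though neither was called. KRT18 changed little (1589 to 1603 CPM), and PAX8, WT1 and KRT8 went down without a call. At 6 h MUC16 (-3.40) went from a mean of 545 to 51.6 CPM, MSLN (-2.29) from 651 to 133 CPM and ESR1 (-1.14) from 223 to 101 CPM, named here after their values were seen. The summed level of the epithelial list was 6507 to 8592 CPM untreated, 5479 to 5896 CPM at 2 h and 6936 to 7095 CPM at 6 h. The part of either list in the changes of the members was not tested.

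In PEO1BRCA+, 2 of the 7 members were called after 2 h of PDS, against 7.57% of all genes, and 2 of the 7 after 6 h, against 8.13%. By adjusted p alone, 5 passed at each time, and the share of all genes under that looser rule is not given here. The members called were FOS and FOSB, which fell at both times, again relative to shared untreated libraries. FOS went from 67.1, 34.6 and 49.4 CPM to 12.8, 10.4 and 7.73 CPM at 2 h and 12.9, 11.0 and 5.25 CPM at 6 h. The treated libraries were all below the untreated ones, with log2 fold changes of -2.28 ± 0.60 (adjusted p = 0.0064) and -2.36 ± 0.60 (adjusted p = 0.0052). FOSB went from 16.3, 4.83 and 11.4 CPM to 2.27, 2.28 and 1.85 CPM and to 2.74, 2.52 and 2.05 CPM, which also lay below every untreated library. These values rest on 62 to 101 counts per treated library. The log2 fold changes of FOSB were -2.33 ± 0.77 (adjusted p = 0.022) and -2.14 ± 0.75 (adjusted p = 0.03), and both calls were lost when any of 5 of the 6 libraries in each comparison was left out (adjusted p of 0.052 to 0.11), the exception being untreated replicate 2.

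The other 5 members were not called in PEO1BRCA+. FOSL1 was at 458, 327 and 486 CPM untreated, 461, 492 and 472 CPM at 2 h and 619, 622 and 696 CPM at 6 h. The untreated range overlapped the 2 h values, whereas the 6 h libraries were all higher, and the log2 fold changes were 0.17 ± 0.24 (adjusted p = 0.6) and 0.61 ± 0.24 (adjusted p = 0.053). FOSL2 was at 215 to 233 CPM untreated, 110.1 to 118 CPM at 2 h and 128 to 138 CPM at 6 h, without overlap. Its log2 fold changes of -0.98 ± 0.07 (adjusted p = 4.8e-11) and -0.76 ± 0.07 (adjusted p = 2.1e-09) did not reach the fold threshold, although the 2 h value did so with library totals (-1.12) and upper-quartile scaling (-1.05). JUN was at 138 to 150.2 CPM untreated, 188 to 210.1 CPM at 2 h and 159 to 171 CPM at 6 h, with log2 fold changes of 0.49 ± 0.24 (adjusted p = 0.1) and 0.23 ± 0.24 (adjusted p = 0.45). JUNB had log2 fold changes of -0.40 ± 0.10 and -0.46 ± 0.10 (adjusted p = 0.0019 and 0.00061) and JUND of -0.34 ± 0.08 and -0.27 ± 0.08 (adjusted p = 0.00063 and 0.0048). Scaling by library totals shifted the median over all genes after PDS by -0.13 to -0.16 and turned the direction of no member in these comparisons. Of the 5 tested markers of other cell types, PECAM1 fell at 6 h in PEO1BRCA+, from a mean of 0.213 to 0.0191 CPM, and the list's summed level was 38.9 to 43.3 CPM untreated and 45.3 to 46.7 CPM at 6 h, with CD3E at 0 and PTPRC near 0. Of the 9 tested epithelial markers, MUC16 fell at both times, from a mean of 413 to 84.6 and 68.7 CPM (log2 fold changes of -2.29 and -2.59), while the summed level of that list was 9555 to 9730 CPM untreated, 13030 to 14169 CPM at 2 h and 11918 to 12921 CPM at 6 h. The part of either list in the changes of the members was not tested.

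**Figure D3:**
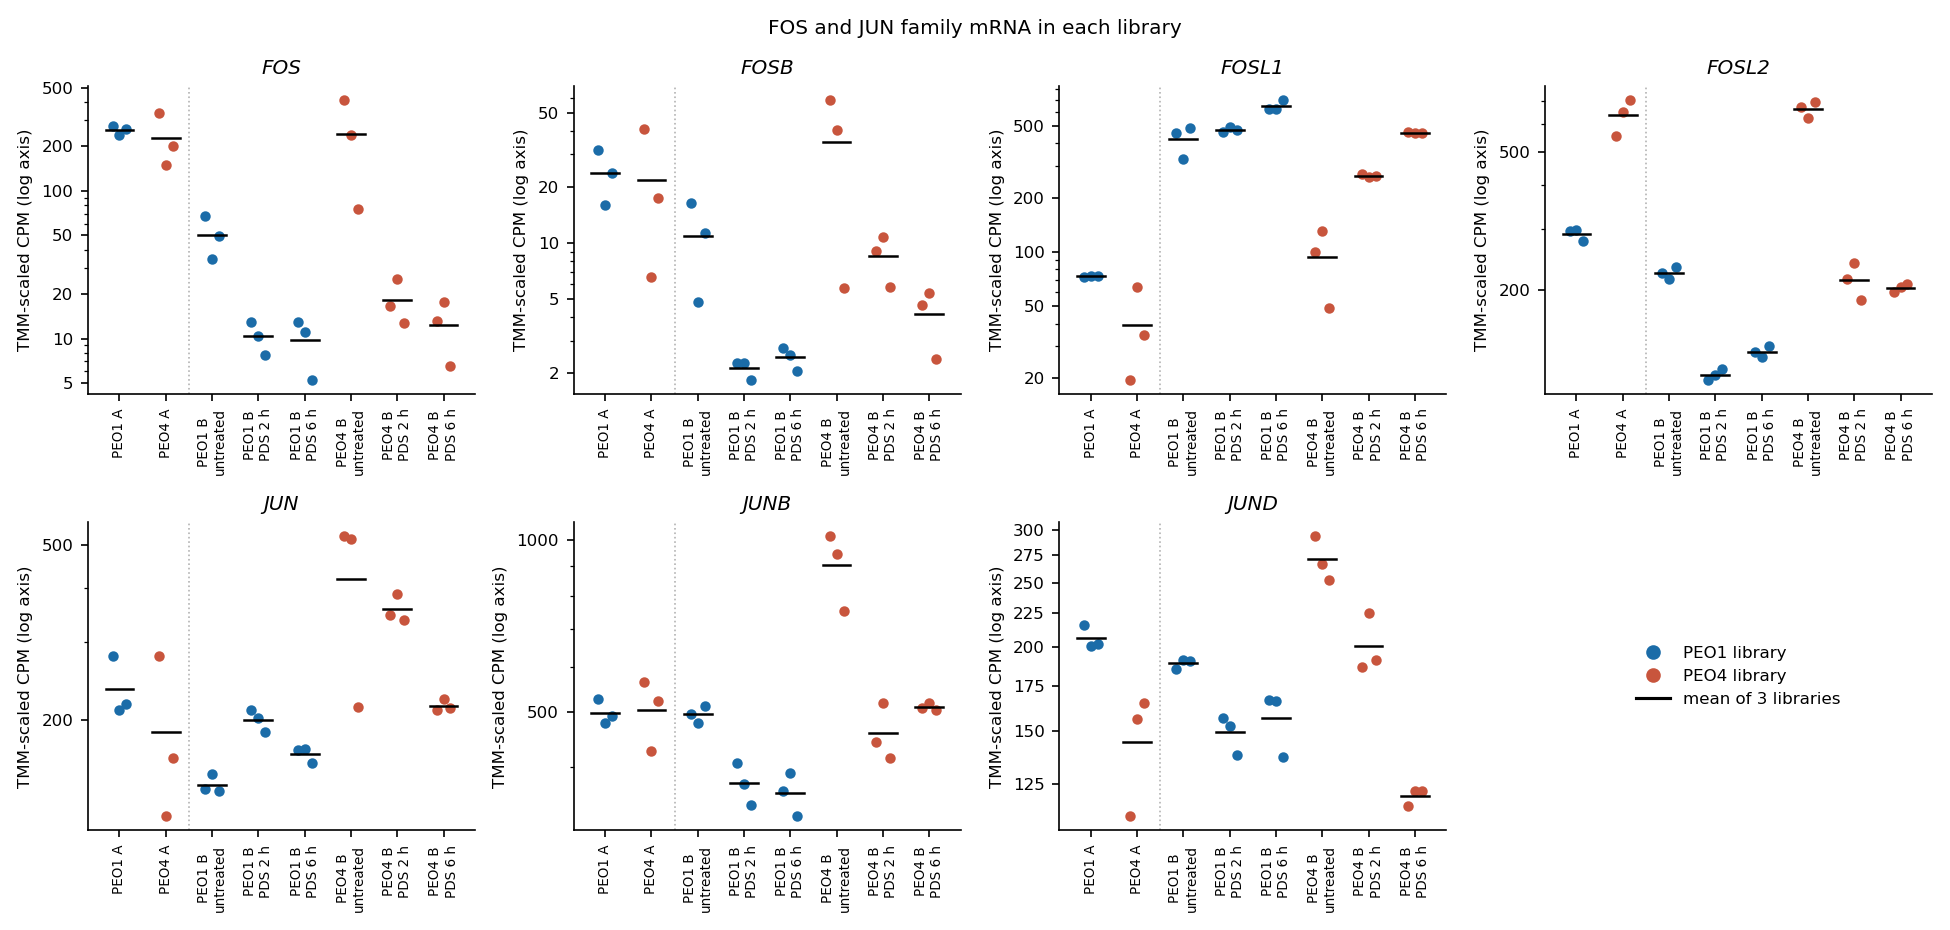
Each panel plots a member's TMM-scaled CPM on a log axis, with 1 point per library, 8 conditions along the horizontal axis, a bar at the mean of 3 libraries and a dotted line between the separately normalized tables. In PEO4 B, FOS went from 75.8 to 412 CPM untreated down to 6.53 to 17.6 CPM at 6 h, while FOSL1 went from 48.8 to 131 CPM up to 456 to 460.3 CPM.

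The responses of the lines were compared by an interaction term. At 2 h 1 of the 7 members was called (11.0% of all genes), and at 6 h 2 of the 7 (14.8%). The log2 fold change of FOSL1 was higher in PEO4 B than in PEO1BRCA+, by 1.34 ± 0.35 at 2 h (adjusted p = 0.0093) and by 1.69 ± 0.35 at 6 h (adjusted p = 0.0015). JUN differed at 6 h, by -1.19 ± 0.34 (adjusted p = 0.011), from log2 fold changes of -0.96 in PEO4 B and 0.23 in PEO1BRCA+ that were not called themselves. Without untreated PEO4 B replicate 1 that difference was -0.996 (adjusted p = 0.029) and missed the fold threshold. The difference for FOS was -1.46 ± 0.81 at 2 h (adjusted p = 0.18) and -1.92 ± 0.83 at 6 h (adjusted p = 0.075), so it did not pass the test. It was called at both times without untreated PEO4 B replicate 3 (-1.88, adjusted p = 0.033, and -2.35, adjusted p = 0.01), and JUN was then called at 2 h too (-1.03, adjusted p = 3.8e-10). FOSB gave 0.29 ± 0.99 (adjusted p = 0.85) and -0.93 ± 1.02 (adjusted p = 0.49). FOSL2 (-0.66 ± 0.10 and -0.96 ± 0.10, adjusted p = 5.6e-06 and 1.7e-08) and, at 6 h, JUND (-0.91 ± 0.11, adjusted p = 4e-07) passed the adjusted p but not the fold threshold, which FOSL2 passed at 6 h without untreated PEO4 B replicate 2. JUNB gave -0.58 ± 0.14 and -0.37 ± 0.14 (adjusted p = 0.0028 and 0.035).

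**Figure D4:**
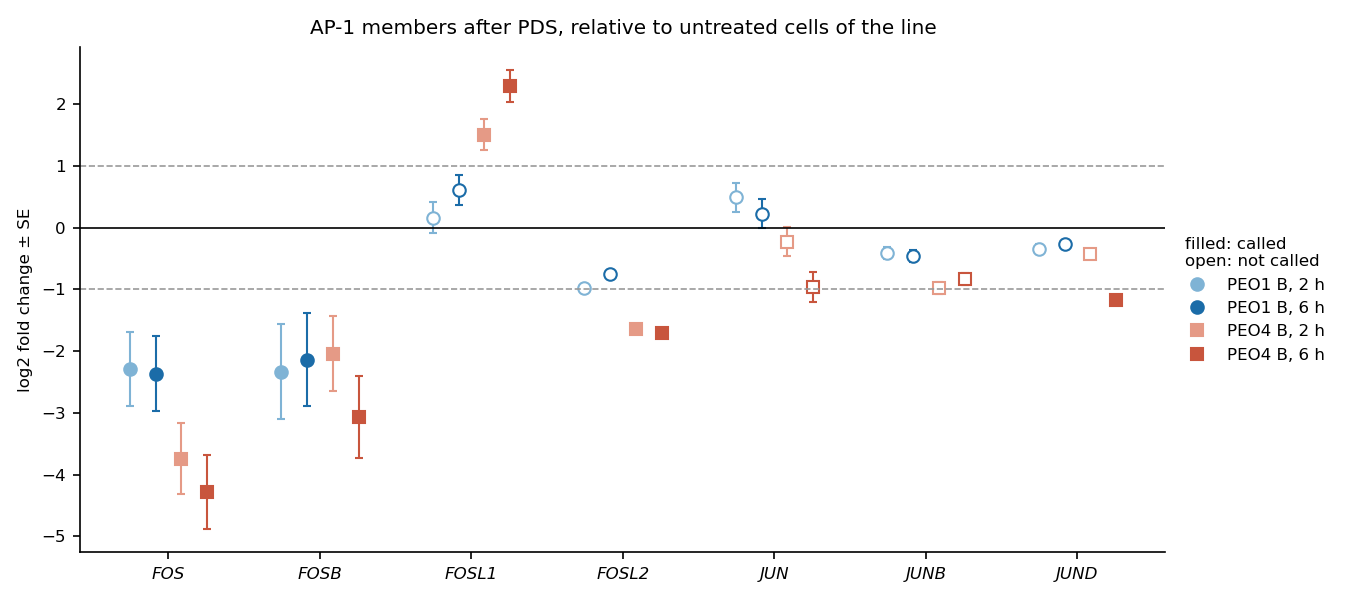
Points give the log2 fold change of each member after PDS relative to untreated cells of the same line (vertical axis, ± SE) for PEO1BRCA+ (PEO1 B, circles) and PEO4 B (squares) at 2 and 6 h, with filled symbols for called members and dashed lines at -1 and 1. FOS lay at -2.36 in PEO1BRCA+ and -4.28 in PEO4 B at 6 h, and FOSL1 at 0.61 and 2.30.

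Between the lines under PDS, 1 of the 7 members was called at 2 h, against 26.5% of all genes, and at 6 h none of the 7 (0), against 23.0%. By adjusted p alone, 7 members passed between the untreated B lines, 6 at 2 h and 3 at 6 h. These counts were not compared by a test, and the shares of all genes under that looser rule are not given here. The member called at 2 h was FOSB, at 5.78 to 10.8 CPM in PEO4 B and 1.85 to 2.28 CPM in PEO1BRCA+ (log2 fold change 1.99 ± 0.75, adjusted p = 0.03), and it was not called without any of 5 of the 6 libraries (adjusted p of 0.061 to 0.084), the exception being PEO4 B replicate 3. Under the fold threshold at 2 h lay FOSL1 (-0.84 ± 0.25, adjusted p = 0.0077), at 259 to 272 CPM in PEO4 B and 461 to 492 CPM in PEO1BRCA+, FOSL2 (0.91 ± 0.07, adjusted p = 1.1e-11) and JUN (0.84 ± 0.24, adjusted p = 0.0062), none of which overlapped between the lines. JUNB (0.29 ± 0.10, adjusted p = 0.012) and JUND (0.43 ± 0.08, adjusted p = 2.3e-05) also passed the adjusted p at 2 h. The members that passed it at 6 h were FOSL2 (0.61 ± 0.07, adjusted p = 1.4e-08), JUNB (0.50 ± 0.10, adjusted p = 0.00015) and JUND (-0.39 ± 0.08, adjusted p = 9.7e-05). FOSL1, at 456 to 460.3 CPM in PEO4 B and 619 to 696 CPM in PEO1BRCA+, had a log2 fold change of -0.50 ± 0.24 (adjusted p = 0.089), although its libraries did not overlap.

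From 2 to 6 h no member was called in either line (0 of 7 in each), against 0.170% of all genes in PEO1BRCA+ and 12.0% in PEO4 B. By adjusted p alone, a looser rule for which the share of all genes is not given here, 3 members passed in PEO4 B and 0 in PEO1BRCA+. In PEO4 B these were FOSL1 (0.79 ± 0.25, adjusted p = 0.014), JUN (-0.73 ± 0.24, adjusted p = 0.017) and JUND (-0.75 ± 0.08, adjusted p = 1.9e-08). FOSB had a larger but noisier log2 fold change there, -1.02 ± 0.68 (adjusted p = 0.22), and was called when only the groups compared were fitted (adjusted p = 0.016). In PEO1BRCA+ the log2 fold change of FOSL1 was 0.44 ± 0.24 (adjusted p = 0.35) and that of FOS was -0.08 ± 0.65 (adjusted p = 0.97).

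Genes around AP-1 were counted in lists. Of the 12 basic leucine zipper factors that can pair or compete with AP-1, 11 were tested in the second table. After 6 h of PDS in PEO4 B, 1 rose and 3 fell (22.6% of all genes were called), with a median log2 fold change of -0.38 against -0.03 for all genes. The genes called included BATF2 (-1.06), BATF3 (1.83) and MAF (-3.37), all with group means under 1 CPM, and they were singled out after their values were seen. In PEO1BRCA+ at 6 h, where 8.13% of all genes were called, BATF2 rose (1.27) and MAF fell (-2.25, with group means under 1 CPM). None (0 of 11) was called between the untreated B lines (24.8% of all genes), while BATF2 (4.02) was higher and ATF3 (-1.82), a stress-induced partner of JUN, lower in PEO4 A than in PEO1 A (2 of 9 tested, against 25.8% of all genes).

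Of the MAP kinases, their activating kinases and the ribosomal S6 kinases that relay signals to AP-1, 21 were tested in the second table. In PEO1BRCA+ 0 of 21 were called at 6 h, against 8.13% of all genes, and in PEO4 B 2 of 21 fell, against 22.6% of all genes called. These were MAP2K6 (-1.29 ± 0.10), an activator of p38, and RPS6KA2 (-1.28 ± 0.12), a ribosomal S6 kinase downstream of ERK. The median log2 fold change of the list was 0.09 in PEO4 B, against -0.03 for all genes. Between the untreated B lines 3 were higher and 4 lower in PEO4 B (24.8% of all genes called), led by the p38 kinases MAPK11 (-3.47 ± 0.13), at 1.43 to 1.66 CPM against 15.7 to 19.4 CPM, and MAPK12 (-2.11 ± 0.11). In the A pair 1 of 22 was higher and 3 lower in PEO4 A (25.8% of all genes called), led by RPS6KA3 (-1.59) and MAPK14 (1.32). MAPK14, the main p38 kinase, and RPS6KA3 were called in the B pair as well, with values of 1.21 and -1.23.

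Of 13 factors known to act at the FOS and JUN promoters, 1 was called after 6 h in PEO4 B, against 22.6% of all genes, and 0 in PEO1BRCA+, against 8.13%. MEF2C rose (1.09 ± 0.18), from 2.17 to 4.52 CPM to 6.11 to 7.48 CPM. At 2 h in PEO4 B, where 17.4% of all genes were called, it rose as well (1.43 ± 0.17), and so did SRF, the factor that binds CArG boxes (1.32 ± 0.06), from 66.8 to 70.5 CPM to 165 to 179 CPM. SRF was singled out after its values were seen. Between the untreated B lines MEF2C (-1.82) and STAT3 (-1.28) were lower in PEO4 B, and MEF2C (-2.63) was lower in PEO4 A than in PEO1 A. Of 9 proteins that bind AU-rich elements of short-lived mRNAs, 2 fell after 6 h in PEO4 B (22.6% of all genes called) and 0 were called in PEO1BRCA+ (8.13%). Those that fell were the decay factors ZFP36L1 (-1.52 ± 0.09), from 541 to 632 CPM to 193 to 215 CPM, and ZFP36 (-1.13 ± 0.23), from 29.7 to 69.6 CPM to 23.6 to 24.5 CPM. The median of this list was 0.19 at that time, against -0.03 for all genes, so its other members lay mostly on the other side of 0. ZFP36L2 and HNRNPD were lower in PEO4 in both untreated pairs, by -1.17 and -1.05 in the B pair and -1.81 and -1.11 in the A pair. Of 7 genes for AP-1 protein turnover and cofactors, 0 were called at 6 h in either line, against the same shares of all genes, and ITCH, a ubiquitin ligase for JUN proteins, rose in PEO4 B at 2 h (1.03 ± 0.06), which was singled out after its values were seen.

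Of 25 genes known as AP-1 targets, 22 were tested in the second table. After 6 h of PDS in PEO4 B 7 rose and 3 fell, against 22.6% of all genes called (1066 up and 2782 down of 17020), with a median log2 fold change of 0.44 against -0.03 for all genes. In PEO1BRCA+ 2 rose and 0 fell, against 8.13% of all genes called, with a median of 0.21 against -0.03. The largest rises in PEO4 B were those of CXCL8 (3.28 ± 0.23), the neutrophil chemokine, from 0.276 to 1.21 CPM to 5.98 to 7.30 CPM, and CD44 (2.60 ± 0.24), the hyaluronan receptor, from 51.3 to 140.1 CPM to 550 to 568 CPM. PLAU (1.14 ± 0.07), which encodes urokinase, rose from 159 to 215 CPM to 411 to 435 CPM, and IL11, MMP9 and SPP1 rose from group means under 5 CPM. VEGFA (-1.72 ± 0.09), the angiogenic growth factor, TIMP1 (-1.23 ± 0.07), a metalloproteinase inhibitor, and PTGS2 (-1.18 ± 0.41) fell. PLAU and the genes named after it in this list were singled out after their values were seen. In PEO1BRCA+ MMP9 (1.62 ± 0.17) and IVL, a cornified envelope gene (1.19 ± 0.19), rose, the latter from 36.7 to 52.6 CPM to 97.5 to 107 CPM. By the interaction term, 4 of the 22 targets responded more positively and 3 more negatively in PEO4 B at 6 h, against 14.8% of all genes called.

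**Figure D5:**
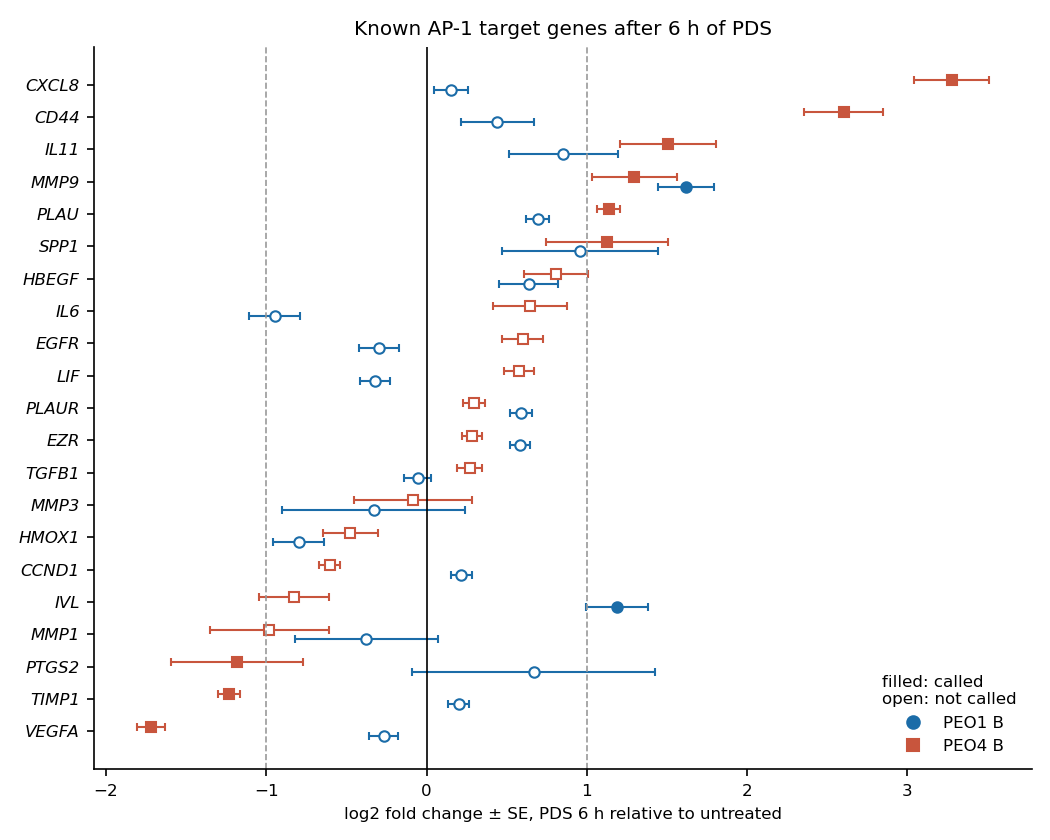
For 21 of the 22 tested AP-1 target genes, points give the log2 fold change ± SE after 6 h of PDS relative to untreated cells (horizontal axis) in PEO1BRCA+ (PEO1 B, circles) and PEO4 B (squares), ordered by the PEO4 B value, with filled symbols for called genes and dashed lines at -1 and 1. In PEO4 B 6 of the genes shown lay past 1, led by CXCL8 at 3.28, and 3 past -1, against 2 and 0 in PEO1BRCA+.

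Between the untreated B lines 7 of the 22 targets were higher and 8 lower in PEO4 B, against 24.8% of all genes called (median -0.25, against -0.00 for all genes). CXCL8 was lower by a log2 fold change of -6.32 ± 0.19, at 0.276 to 1.21 CPM against 49.7 to 61.9 CPM, and PTGS2, the inducible cyclooxygenase, higher by 3.66 ± 0.59, at 1.70 to 10.2 CPM against 0.335 to 0.571 CPM. In the A pair 3 of 20 were higher and 8 lower in PEO4 A, against 25.8% of all genes called (median -0.42, against -0.01 for all genes), led by CD44 (-4.45 ± 0.42), at 16.3 to 45.5 CPM against 648 to 680.2 CPM, and by the heme oxygenase gene HMOX1 (-4.14 ± 0.23). CD44 was lower in PEO4 B too, by a log2 fold change of -3.02 ± 0.25 untreated.

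The genes most like each member were taken as the 2 with the highest Pearson correlation of log2 CPM over the 18 libraries of the second table, among 10242 genes. These libraries share lines, treatments and depth classes, so the values describe a shared pattern over 6 conditions and carry no test. FOS was most like DUSP1 (0.961) and IER2 (0.948), both immediate early genes, and FOSB most like DUSP1 (0.948) and HES1 (0.933), a Notch-responsive repressor. JUNB was most like IER2 (0.970) and FBXL17 (0.959). FOSL1 followed FAM126A (0.979) and CDV3 (0.978), FOSL2 followed SMAD6 (0.986), an inhibitor of BMP signalling, and MEST (0.983), and JUND followed CCDC30 (0.964) and OTUD1 (0.960). JUN had the least close partners, STN1 (0.923) and NAPG (0.910). Among the members themselves, FOS and FOSB ran together (0.915), as did FOSL2 and JUNB (0.952), FOSL1 ran against FOSL2 (-0.897) and JUNB (-0.817), and JUN was only loosely related to FOS (0.490).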

How the data were processed

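RNA-seq counts of 24 libraries in 8 conditions were used. The authors trimmed reads with fastp, aligned them to hg38 with STAR and deposited whole-number counts per gene in 2 tables, and the submitters' processing notes name FastQC and featureCounts as well. Counts were not normalized by the authors. The annotation, strand setting and tool versions are not given in the sources used here. The A libraries were made with a directional poly(A) kit.

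In R 4.3.3, edgeR 4.0.16 (filterByExpr with a minimum count of 10 and a minimum total of 15, TMM, robust quasi-likelihood F-test, conditions as group means) was run once per table on all its libraries, over 15882 genes of the first and 17020 of the second, with 4 and 12 residual degrees of freedom. Standard errors were derived from the F statistic. A call needed a p below 0.05 after Benjamini-Hochberg adjustment over all genes tested and a log2 fold change past 1 or -1. Lines without readable counts (2 and 1) were left out, and no replicates were duplicates, since the lowest chi-square per gene between replicates was 2.13. Levels are TMM-scaled CPM. Lengths and exons come from GENCODE release 44 and promoters from RefSeq. Correlations used log2 CPM with a prior count of 2 and genes with a mean log2 CPM of at least 3.

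The text names all members and, for each list and comparison, up to 2 called genes with the largest change among those with a mean log2 CPM of at least 1. Some genes of the lists are counted but not reported by name here. The members, lists and alternatives were chosen with earlier results of these data known. Alternatives were other scalings, DESeq2 1.42.0, no low-count filter, adjusted p alone, a replicate block, fits of the groups compared and leaving out each library. The scripts were tested on simulated data. Replicate numbers were not used to pair the samples in the main fit. Deviations of same-numbered libraries correlated at -0.043 to 0.023 in the first table and -0.158 to 0.134 in the second. Low values like these do not exclude that same-numbered cultures were handled together.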

Additional observations from a re-analysis of the deposited data

Results flagged for a closer look

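A line difference in the response to PDS, by the interaction term of the fit, was called for 2 members. FOSL1 had a log2 fold change higher in PEO4 B than in PEO1BRCA+ by 1.34 at 2 h and by 1.69 at 6 h. JUN had a log2 fold change at 6 h that was lower in PEO4 B, with a difference of -1.19. The 2 h and 6 h values share the untreated libraries.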

How the results depend on the processing

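Across the 84 log2 fold changes of members, of which 23 were called, the settings other than leaving out a library gave 581 values, of which 568 kept direction and side of the threshold, 2 lost a call, 11 gained one and 0 changed sign. Leaving out a library gave 588 values, of which 545 kept both, 21 lost a call, 8 gained one and 14 changed sign.

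With adjusted p alone, the members called were 2 between the A lines, 6 between the B lines at 2 h and 3 at 6 h, 5 and 5 after 2 and 6 h in PEO1BRCA+, 3 from 2 to 6 h in PEO4 B, and 3 and 5 for the line difference in response at 2 and 6 h. The shares of all genes under that looser rule are not given here. With only the groups compared, 1 member was called from 2 to 6 h in PEO4 B. Without each replicate in turn, members called ranged from 1 to 2 between the A lines, 0 to 1 between the B lines at 2 h, 1 to 2 at both times in PEO1BRCA+, and 1 to 3 for the line difference in response at both times. The cause was not tested. With the replicate block, the counts of members called were the same except for the line difference in response at 6 h, where 3 were called because FOS passed (-1.69, adjusted p = 0.047). DESeq2 called FOS there as well (adjusted p = 0.031).

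Signs turned without a replicate for values near 0. Between the A lines the range was -0.55 to 0.067 for FOS, -0.99 to 0.31 for FOSB and -0.064 to 0.13 for JUNB. From 2 to 6 h it was -0.35 to 0.22 for FOS and -0.12 to 0.011 for JUNB in PEO1BRCA+, and -0.15 to 0.0195 for FOSL2 in PEO4 B. For FOSB it was -0.22 to 0.89 in the line difference at 2 h. Dividing by the longest transcript moved the share of JUNB to 40.8% in PEO1 A, 42.9% in PEO4 A, 37.7% in PEO4 B at 2 h and 39.1% at 6 h. It also changed how FOS stood to JUND and FOSL1, and FOSL1 to JUNB, in the untreated conditions named above.

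With 3 libraries per condition, FOS and FOSB had the widest spread, up to 2.44 and 3.33 on the log2 scale within untreated PEO4 B, which limits what their tests can show.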
